A study of Mus musculus with 18 samples.

Results

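The nuclei described here are layer 5 Fezf2 projection neurons of the mouse prefrontal cortex (PFC), taken from droplet-based single-nucleus RNA libraries. They were chosen by raw counts of unique molecular identifiers (UMIs), the tags that mark single captured RNA molecules, among PFC nuclei with at least 200 detected genes and at most 10% of UMIs in mitochondrial genes. A nucleus had to hold at least 2 UMIs of Fezf2 and at least 1 UMI of Slc17a7. It could hold at most 1 UMI each of Foxp2, Tshz2, Rorb and Cux2, at most 1 UMI of Gad1 and Gad2 together, and at most 1 UMI of Mog, Mag, Pdgfra, Aqp4, Gja1, Csf1r and Flt1 together. This rule gave 526 Fezf2 nuclei among 66602 kept PFC nuclei (0.790%). They were 1.38% of the 38100 kept nuclei with Slc17a7 and at most 1 UMI of the Gad genes.

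The series has 3 groups of 3 mice each, called GF (germ-free), SPF (specific pathogen-free) and CGF (germ-free, then colonized), and was made to ask what the gut microbiota changes in brain cells, and holds 138000 kept nuclei in 18 libraries of hippocampus and PFC. GF mice lived without microbes in isolators, SPF mice carried a microbiota without listed pathogens, and CGF mice were born germ-free and shared an isolator with SPF mice from 4 weeks of age for 4 weeks. Per the study's methods, all mice were Kun Ming mice, the GF mice were derived from SPF mice by sterile treatment, and all were 8 weeks old at harvest. Each library held the PFC of 1 mouse. Values per mouse are given in the order GF 5, 6 and 7, SPF 30, 31 and 32, and CGF 17, 18 and 19.

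Fezf2 encodes a zinc-finger transcription factor that directs young deep-layer neurons of the cortex to the subcerebral fate. The adult cells that keep it include the extratelencephalic (pyramidal tract) neurons of layer 5, large pyramidal cells that send axons out of the cortex to thalamus, midbrain, pons and spinal cord. Their neighbours in layer 5 are the intratelencephalic neurons, which project within cortex and striatum, and the near-projecting neurons, marked by Tshz2. Slc17a7 encodes the vesicular glutamate transporter VGLUT1, which most excitatory neurons of the cortex use.

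Depth differed between the groups. The PFC libraries of GF mice held 59126586 to 71463928 UMIs, those of SPF mice 20336250 to 26949210 and those of CGF mice 22213863 to 26151503. The median Fezf2 nucleus held 13866, 16616.5 and 12896.5 UMIs in the GF mice, 6202.5, 5273 and 5346.5 in the SPF mice and 5665, 6096.5 and 4513.5 in the CGF mice. Of the UMIs of the Fezf2 nuclei, 0.153% to 0.432% in GF mice came from mitochondrial genes, against 1.34% to 2.75% in SPF mice and 1.12% to 2.39% in CGF mice. The share in genes annotated as antisense was 1.27% to 1.61%, 0.448% to 0.482% and 0.464% to 0.507%. The GF libraries thus stood apart from the other 6 in each of these measures, and an effect of the germ-free state cannot be told apart from this difference between the libraries. SPF and CGF libraries were alike in them. Any pair of PFC libraries shared between 7 and 26 cell barcodes.

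The count of Fezf2 nuclei was 25, 42 and 32 in the GF mice, 68, 69 and 84 in the SPF mice and 58, 54 and 94 in the CGF mice. As a share of all kept PFC nuclei this was 0.318%, 0.550% and 0.353% in GF, 1.19%, 1.0% and 1.14% in SPF, and 0.798%, 0.744% and 1.24% in CGF mice. Every GF mouse lay below every SPF and CGF mouse, while CGF and SPF mice overlapped. The means were 0.407% ± 0.125 (SD, n = 3), 1.11% ± 0.0980 and 0.928% ± 0.274. An exact two-sided permutation test over the 3 groups gave p = 0.0143. For GF against SPF and GF against CGF the exact permutation test gave p = 0.1, the smallest that 3 mice against 3 allow, and for CGF against SPF it gave 0.4.

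The rule counts raw UMIs, so a deeper nucleus reaches its minimum and exceeds its limits more often. With each nucleus thinned to 2000 UMIs before the rule was applied, the GF mice held 0, 0 and 1 Fezf2 nuclei, the SPF mice 17, 14 and 15 and the CGF mice 8, 9 and 19 (exact permutation test over the groups, p = 0.0179). The GF mice held the fewest after thinning too, which was also seen for Cux2 nuclei, an upper-layer class with at least 2 UMIs of Cux2: their mean share after thinning was 2.33% for the GF mice, 5.50% for the SPF mice and 5.36% for the CGF mice (exact permutation test over the groups, p = 0.0536) and 13.5%, 12.2% and 10.3% before it (p = 0.168). For Fezf2 nuclei the exact permutation test over the groups also gave p = 0.0179 with at least 3 UMIs and p = 0.0107 with at least 1 UMI of Fezf2. Over all kept PFC nuclei, without any rule, the level of Fezf2 in counts per 1000000 UMIs (CPM) was 11.8 to 12.5 in the GF mice, 26 to 34.5 in the SPF mice and 22.9 to 36.3 in the CGF mice (11.5 to 12.1, 26.2 to 35.7 and 24.2 to 38.7 without scaling). The rule counts the same RNA, so this level is no independent evidence on the share. Here and below, CPM are taken over the UMIs of genes past edgeR's low-count filter, and library sizes were scaled by its TMM factors separately for each class of nuclei. Fewer cells of this type and less Fezf2 RNA per cell cannot be told apart in this measure. Without thinning, the share of Tshz2 nuclei was also lower in GF than in SPF mice, with a difference of -0.39 percentage points (exact permutation test over the groups, p = 0.0179) and of -0.14 points after thinning (p = 0.589). The share of Foxp2 nuclei was 2.33 points higher in GF than in SPF mice (exact permutation test over the groups, p = 0.00714), with a difference of -0.0562 points after thinning (p = 0.146).

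**Figure D1:**
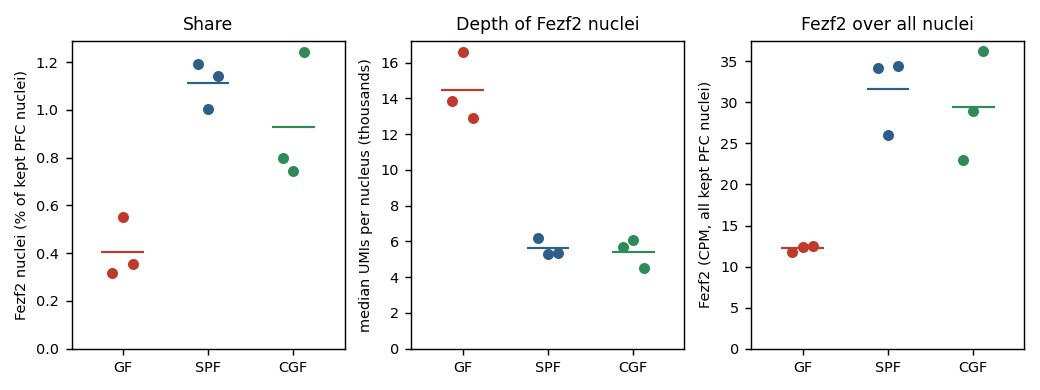
Left, Fezf2 nuclei as a percent of kept PFC nuclei; middle, median UMIs of the Fezf2 nuclei in units of 1000; right, CPM of Fezf2 over all kept PFC nuclei. Points are mice and lines are means of 3 mice: the GF mice lie lowest in the left and right panels (0.318% to 0.550%, 11.8 to 12.5 CPM) and highest in the middle one.

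Most nuclei lay close to the threshold. Of the 526 nuclei, 370 (70.3%) held exactly 2 UMIs of Fezf2, 141 held 3 or 4 and 15 held at least 5, with 7 as the most. Just outside the rule, 1323 nuclei met every other condition with 1 UMI of Fezf2. The level of Fezf2 within the nuclei, which the rule sets in part through depth, was 213, 174 and 183 CPM in GF, 378, 395 and 439 CPM in SPF and 405, 390 and 490 CPM in CGF mice. Slc17a7 stood at 258, 241 and 231 CPM, 494, 621 and 538 CPM, and 436, 451 and 502 CPM. On the mouse genome GRCm38, Fezf2 lies at chr14:12342094-12348189 on the minus strand and Slc17a7 at chr7:45163949-45176142 on the plus strand.

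The extratelencephalic and upper-layer markers that the rule did not use fitted the name of the nuclei, while the intratelencephalic markers were not lower as a set. The nuclei were compared with all other nuclei of the same library that held Slc17a7, at most 1 UMI of the Gad genes and at most 1 of the glial and vascular genes, as a description without a test, since the rule chose them by measured values. Of the 13 extratelencephalic markers outside the rule, 12 were higher in the Fezf2 nuclei in all 9 libraries, and Fam84b was higher in 8 of 9. Over all 4100 genes with a mean of at least 50 CPM in either class, 554 (13.5%) were higher in all 9 libraries and 371 (9.05%) lower in all 9. This balance depended on how CPM were made: with unscaled CPM, taken over the UMIs of all genes and without the TMM factors of each class, 405 of 4010 genes (10.1%) were higher and 509 (12.7%) lower, and 11 of the 13 markers stayed higher in all 9, with Slco2a1 and Fam84b higher in 8. All 4 upper-layer markers outside the rule, Cux1, Calb1, Otof and Rasgrf2, were lower in all 9. The Fezf2 nuclei held more UMIs per nucleus than the other Slc17a7 nuclei of their library, whose medians were 8851 to 9714 UMIs for GF mice, 3814 to 4052.5 for SPF mice and 3048 to 4189.5 for CGF mice, and the part of this in the marker levels was not tested.

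Chst8, which encodes a sulfotransferase that modifies sugar chains, was at 140, 179 and 175 CPM in GF, 53.3, 122 and 128 CPM in SPF and 100, 89.6 and 113 CPM in CGF Fezf2 nuclei, against a median of 23.1 CPM in the other Slc17a7 nuclei. Npr3, the clearance receptor of natriuretic peptides, was at 157, 126 and 114, at 83.5, 56.1 and 88.3, and at 94.4, 113 and 110 CPM, against a median of 20.1 CPM. Both genes were higher than in the other nuclei of every library, with a median ratio, after adding 1 CPM to both values, of 4.99 for Chst8 and 5.09 for Npr3. Parm1, a mucin-like membrane protein, had a median of 112 CPM against 26.2 CPM. Bcl6, a transcriptional repressor, had 66.0 against 12.6 CPM, and Pou3f1, a POU-domain transcription factor of corticofugal neurons, 48.7 against 17.6 CPM. The nuclear factor Tox had 845 against 268 CPM, and the LIM-domain binding protein Ldb2 819 against 355 CPM. Smaller differences of the same sign were seen for Vat1l (88.3 against 34.2 CPM), the membrane protein Crim1 (185 against 80.6 CPM), Gprin3 (52.1 against 29.1 CPM) and the thyroid hormone-binding protein Crym (54.9 against 31.4 CPM).

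Markers of the other deep-layer types set the nuclei apart less evenly. Of the 6 intratelencephalic markers, Etv1, a transcription factor found in several layer 5 types, was higher in all 9 libraries (8 with unscaled CPM), with a median of 96.5 against 44.2 CPM, but below the 291 CPM of Tshz2 nuclei. Lpl was lower in all 9. Of the 5 near-projecting markers outside the rule, Vwc2l was lower in all 9 libraries, with a median of 4.64 CPM in Fezf2 nuclei and 501 CPM in Tshz2 nuclei. The corticothalamic markers Syt6 and Tle4 had medians of 7.62 and 82.9 CPM, against 150 and 462 CPM in Foxp2 nuclei.

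**Figure D2:**
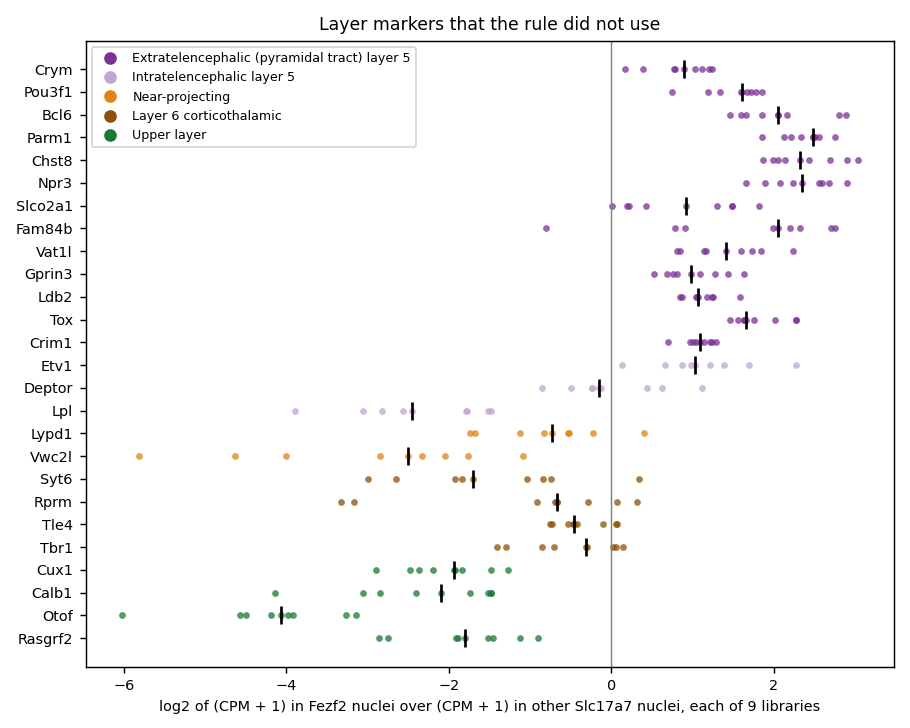
Log2 of the ratio of (CPM + 1) in Fezf2 nuclei to (CPM + 1) in the other Slc17a7 nuclei of the same library, for layer markers that the rule did not use and that reached a median of 5 CPM in either class, 1 left out. Each point is 1 of 9 libraries and the black bar is their median: the extratelencephalic markers lie right of 0 in all 9 libraries except Fam84b, and the upper-layer markers left of it.

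Nuclei were also split by their Fezf2 UMIs, the value the rule uses, as a description. Of the 13 markers, 11 had a higher median level with 2 UMIs than with 1 and with at least 3 than with 2, and Gprin3 and Slco2a1 did not. This count has no share over all genes beside it. Depth rose too, in SPF 30 from a median of 4110.5 UMIs with 1 to 5598.5 with 2 and 7047 with at least 3. Only in CGF 17 and SPF 32 did it not rise at the second step. The part of depth was not tested. Npr3 had a median over libraries of 52.5 CPM in the nuclei with 1 UMI of Fezf2, just outside the rule, 87.7 CPM in those with 2 and 160 CPM in those with at least 3. Chst8 had 57.6, 106 and 150 CPM and Bcl6 26.6, 50.8 and 85.8 CPM. Tox had 583, 767 and 1091 CPM. In single nuclei the markers were sparse. For this, UMIs were summed over the extratelencephalic markers outside the rule, leaving out Ldb2, Tox and Crim1. Of the 510 Fezf2 nuclei that could be thinned to 2000 UMIs, 165 held 0 such UMIs, 250 held 1 or 2 and 95 at least 3. A UMI of the intratelencephalic markers Etv1, Deptor, Hsd11b1 or Batf3 was found in 117 of the 510, and in 19 of the 95.

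Markers of other cell types were summed over the genes that the rule did not limit. The 7 interneuron markers summed to 203 to 272 CPM in Fezf2 nuclei of GF mice, 305 to 312 CPM in those of SPF mice and 292 to 347 CPM in those of CGF mice, below the other Slc17a7 nuclei (409 to 572 CPM) in all 9 libraries. The 3 astrocyte markers summed to 15.8 to 50.8 CPM for GF, 69.5 to 92.6 CPM for SPF and 60.7 to 88.8 CPM for CGF mice, also below the other Slc17a7 nuclei (59.9 to 124 CPM) in all 9. The 2 markers of oligodendrocyte precursors were lower in 8 of 9 libraries (9 with unscaled CPM). The 5 microglial markers (15.5 to 51.0 against 19 to 41.1 CPM) and the 2 vascular markers (0 to 14 against 2.25 to 6.46 CPM) showed no one direction. The 3 oligodendrocyte markers were higher in Fezf2 nuclei in all 9 libraries (155 to 311 against 81.9 to 201 CPM), led by Mbp, which encodes myelin basic protein, with a median of 133 against 76.1 CPM.

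Some genes of excitability and synapses also set the Fezf2 nuclei apart from the other Slc17a7 nuclei of the same mice. Cacna1h, a T-type calcium channel, had a median of 133 against 42.5 CPM, and Kcnn2, a calcium-activated potassium channel of the SK family, 508 against 179 CPM, and both were higher in all 9 libraries. Of the 26 potassium channel genes above 50 CPM, 4 were higher and 9 lower in all 9 libraries (3 and 11 with unscaled CPM). Over all genes 13.5% were higher and 9.05% lower (10.1% and 12.7% with unscaled CPM), so the share of higher ones was near that of all genes. The lower ones included Kcnc2, a Kv3 channel of fast-spiking cells (75.7 against 264 CPM), Kcnip2 (20.2 against 83.4 CPM), Kcnh5 (46.4 against 179 CPM) and Kcnh1 (134 against 416 CPM). Both directions thus occurred within the same family.

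Of 19 glutamate receptor genes above 50 CPM, 9 were higher in all 9 libraries (7 with unscaled CPM) and 4 lower. Beside them stand 13.5% of all genes higher and 9.05% lower (10.1% and 12.7% with unscaled CPM). Grik2, a kainate receptor subunit, was among the higher ones, with medians of 1457 against 564 CPM. Gria4 (289 against 736 CPM) and Grik1 (14.1 against 55.8 CPM) were lower. Gabra5, a subunit of extrasynaptic GABA receptors, had 107 against 51.9 CPM. Among receptors of modulators, Adra1a, an adrenergic receptor (142 against 36.3 CPM), Htr1f, a serotonin receptor (457 against 309 CPM), and Nr3c2, the mineralocorticoid receptor (200 against 118 CPM), were higher in all 9 libraries. Htr2a, the serotonin receptor bound by classic psychedelics, was lower in all 9 (13.3 against 68.4 CPM).

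The list of axon guidance and growth genes in corticofugal neurons had the largest number of differences, with 11 of 24 higher and 5 lower in all 9 libraries under either scaling. These and the counts below stand beside 13.5% of all genes higher and 9.05% lower (10.1% and 12.7% with unscaled CPM). This list was made for such neurons and holds Crim1, also counted among the extratelencephalic markers, so its count is partly set by that choice. Robo1, a receptor for Slit proteins, had 575 against 212 CPM, Ntng1, the cell-surface ligand netrin-G1, 390 against 170 CPM, and Nrp1, a receptor of class 3 semaphorins, 189 against 89.7 CPM. The netrin receptors Dcc (146 against 449 CPM) and Unc5d (71.9 against 495 CPM) were lower. The low level of Unc5d was shared with Foxp2 nuclei (median 66.9 CPM, Fezf2 nuclei higher in 5 of 9 libraries), while Cux2 nuclei had 693 CPM. Of 17 genes of the axonal cytoskeleton, 7 were higher in all 9 libraries (3 with unscaled CPM), among them the neurofilament genes Nefl (79.9 against 65.0 CPM) and Ina (109 against 55.4 CPM). Of the synaptic vesicle genes, Rab3c (467 against 157 CPM) and Cplx1, a complexin that clamps vesicle fusion (144 against 73.6 CPM), were higher, while Erc2 of the active zone was lower (986 against 1604 CPM). Cadherins went both ways, with Cdh13 (809 against 378 CPM) and Cdh20 (155 against 70.1 CPM) among 5 higher and Pcdh15 (444 against 1034 CPM) and Pcdh9 (893 against 1938 CPM) among 5 lower (4 and 7 with unscaled CPM).

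The groups were then compared on the UMIs summed over the Fezf2 nuclei of each mouse, 335286 to 678029 UMIs per library. With edgeR's quasi-likelihood test and Benjamini-Hochberg adjustment over 7024 genes, 1242 genes were higher and 1366 lower in GF than in SPF mice at an adjusted p under 0.05 (37.1% called, 17.7% higher and 19.4% lower), and 1119 were higher and 1295 lower in GF than in CGF mice (34.4% called). After removal, library by library, of a fitted trend on length and GC content, the split of GF against SPF moved to 1809 higher and 723 lower, with the median gene at 0.25 on the log2 scale, and that of GF against CGF to 1676 and 669. Between CGF and SPF mice, 5 genes were higher (0.0712% called) and 5 lower (0.0712% called), or 0.142% in all (with 497 genes at an unadjusted p under 0.05 and 5 genes called by DESeq2). Since the depth, mitochondrial share and antisense share of the GF libraries stood apart as given above, every GF difference below stands beside them, and their part in it was not tested. GF against SPF and GF against CGF share the GF libraries. With 1 sum per mouse, p-values measure the spread between these 9 libraries.

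Of the 11 extratelencephalic markers that could be tested, 7 were higher in GF than in SPF mice and 0 lower, with a median log2 fold change of 0.75 against a median of all genes near 0. The list is partly fixed by the choice of the nuclei and is no independent evidence of identity. Ldb2 was at 961, 1424 and 1287 CPM in GF, 559, 497 and 649 CPM in SPF and 819, 891 and 621 CPM in CGF mice (GF against SPF, log2 fold change 1.11, SE 0.18, edgeR adjusted p = 2.34e-05). Tox was at 1341, 1426 and 1635, at 709, 663 and 845, and at 983, 740 and 535 CPM (0.99, SE 0.19, edgeR adjusted p = 0.000136). GF and SPF mice did not overlap in either gene, as in 47.4% of all genes tested. The other 5 were Vat1l (1.01), Gprin3 (0.85), Npr3 (0.78), Parm1 (0.75) and Chst8 (0.71, and 0.41 and not called without SPF 30). Not called were Bcl6 (0.55, SE 0.29), Pou3f1 (0.33, SE 0.30), Crim1 (0.14, SE 0.19) and Crym (-0.39, SE 0.28). With 1 library left out these ranged from 0.27 (without SPF 31) to 0.85 (without SPF 30, where Bcl6 was called, edgeR adjusted p = 0.0498) for Bcl6, from 0.17 (without GF 6) to 0.63 (without GF 7) for Pou3f1, from 0.071 (without SPF 30) to 0.23 (without SPF 32) for Crim1 and from -0.54 (without GF 6) to -0.22 (without SPF 32) for Crym. When all nuclei were thinned to 2000 UMIs, Npr3 (0.06), Chst8 (0.44) and Parm1 (0.69) were no longer called. Against CGF mice, 4 of the 11 were higher in GF mice (Chst8, Gprin3, Ldb2 and Tox) and 1, Crym, was lower, with a median of 0.47. The summed level of the 13 markers was also higher in the other Slc17a7 nuclei of GF mice, at 1070 to 1210 CPM against 746 to 918 CPM in those of SPF mice. Between CGF and SPF mice none of the 11 was called and their median was 0.08.

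Ion channel genes were called in both directions, in shares to be read beside the 17.7% of all genes that rose and the 19.4% that fell. These shares, here and below, take no account of gene span. Of the 1755 tested genes with a span over 100.8 kb, 506 rose and 154 fell. Of the 1755 with a span up to 20.1 kb, 158 rose and 656 fell. Of 20 genes of sodium, calcium and HCN channels 2 were higher in GF than in SPF mice and 5 lower, in all a share of calls near the 37.1% of all genes. Their median was -0.19. With the trend on length and GC content removed it was 0.031, below the median of all genes in that setting, 0.25. Cacna1h was at 55.9, 49.2 and 76.2 CPM in GF and 155, 144 and 137 CPM in SPF mice (-1.28, SE 0.22, edgeR adjusted p = 4.74e-05). Of 28 potassium channel genes 8 rose and 8 fell, with a median of 0.05 that had no stable sign (-0.074 without GF 7 and 0.25 without SPF 32). The rises included Kcnip4 (1.37), a modulator of A-type channels, and the channel genes Kcnh7 (1.17) and Kcnq5 (1.13), and the falls Kcnt1 (-1.51) and Kcnc1 (-1.51), a sodium-activated and a Kv3 channel.

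Of 21 glutamate receptor genes 8 rose and 2 fell (median 0.17, and 0.37 without GF 5), while against CGF mice 6 were higher and 5 lower in GF mice. Of 13 GABA receptor genes 5 rose and 0 fell (median 0.35). By class, the GABA receptor medians were 0.35 in Fezf2, 0.20 in Cux2, 0.30 in Foxp2 and 0.22 in the other Slc17a7 nuclei. The glutamate receptor medians were 0.26, 0.024, 0.18 and 0.025 in the same order. Grik2 was at 2777, 2921 and 3065 CPM in GF and 1386, 963 and 1192 CPM in SPF mice (1.31, SE 0.18, edgeR adjusted p = 2.63e-06). Gabrb2, a subunit of synaptic GABA receptors, was at 587, 673 and 604 CPM in GF and 280, 232 and 229 CPM in SPF mice (1.33, SE 0.19, edgeR adjusted p = 2.87e-06). In both genes the CGF mice lay near the SPF mice, at 1001 to 1608 CPM for Grik2 and 219 to 385 CPM for Gabrb2. Gabra2 also rose (1.19), and Grm2, a presynaptic autoreceptor, fell by 2.17 on the log2 scale. Of 16 genes for receptors of monoamines, acetylcholine and stress hormones, 4 rose and 2 fell (median 0.20, and 0.033 without GF 6), which is near the 37.1% of all genes. Nr3c2 rose by 0.99 (SE 0.20) and Chrna7, a nicotinic receptor subunit, fell by 1.33 (SE 0.31), while the glucocorticoid receptor Nr3c1 was at -0.13 (SE 0.23) and not called.

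Against the same 17.7% higher and 19.4% lower over all genes, of 29 synaptic adhesion genes 13 rose and 5 fell (median 0.56), and of 18 cadherins 11 rose and 1 fell (median 0.61). Neither share over all genes takes account of gene span. By class, the adhesion medians were 0.58 in Fezf2, 0.35 in Cux2, 0.50 in Foxp2 and 0.47 in the other Slc17a7 nuclei. The cadherin medians were 0.61, 0.51, 0.66 and 0.53 in the same order, so these rises were not particular to Fezf2 nuclei. Cntnap2, a neurexin-related protein, was at 4974, 6221 and 5025 CPM in GF and 1667, 2050 and 1778 CPM in SPF mice (1.56, SE 0.18, edgeR adjusted p = 1.81e-07). Lrrtm1 (2.31) and the cadherins Cdh9 (1.40) and Cdh12 (1.38) rose too, and Slitrk3 (-1.57) fell. Of 26 genes of vesicle release 4 rose and 10 fell (median -0.38). With the trend on length and GC content removed their median was 0.066, below the 0.25 of all genes in that setting. By class, the vesicle medians were -0.37 in Fezf2, -0.32 in Cux2, -0.18 in Foxp2 and -0.23 in the other Slc17a7 nuclei. Vamp2, the vesicle protein that drives fusion, was at 66.4, 45.7 and 71.1 CPM in GF and 236, 275 and 284 CPM in SPF mice (-2.16, SE 0.23, edgeR adjusted p = 2.86e-08), and Cplx1 fell by 1.69 (SE 0.24). Rims1 (0.94) and the calcium sensor Syt1 (0.72) were among the rises.

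In the axon lists, again beside 17.7% of all genes higher and 19.4% lower, 10 of 27 guidance genes rose and 2 fell (median 0.33, and 0.19 without GF 5). Of the 1755 genes with a span over 100.8 kb, 506 rose and 154 fell, and the part of span in these counts was not tested. Of 18 cytoskeleton genes 2 rose and 8 fell (median -0.06). With the trend on length and GC content removed the cytoskeleton median was 0.11, below the 0.25 of all genes in that setting. Robo2 was at 926, 880 and 835 CPM in GF and 262, 344 and 317 CPM in SPF mice (1.52, SE 0.21, edgeR adjusted p = 1.77e-06). Unc5c (1.34) rose and Plxna1 (-1.03) fell. By class, the guidance medians were 0.34 in Fezf2, 0.24 in Cux2, 0.41 in Foxp2 and 0.18 in the other Slc17a7 nuclei. Map1a, a microtubule-associated protein, was at 31.4, 47.4 and 25.4 CPM in GF and 260, 341 and 332 CPM in SPF mice (-3.09, SE 0.23, edgeR adjusted p = 8.11e-11), while its relative Map2 rose (0.76, SE 0.16). The neurofilament gene Nefm fell by 1.93 (SE 0.32). Of 12 activity-regulated genes (median 0.11, and -0.13 without GF 7), Homer1 rose (1.25) and Scg2 (-1.33) and Egr1 (-1.30) fell, a smaller share than the 37.1% called over all genes.

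Most tested genes of cytosolic ribosomal proteins and all tested genes of the mitochondrial genome were lower in GF mice. Of 84 cytosolic ribosomal protein genes listed 35 could be tested, and of these 27 fell, 1, Rpl22l1, rose and 7 were not called (median -1.57). A gene could pass the low-count filter through the SPF and CGF libraries alone. The count and median of the ribosomal list are thus partly set by the filter. All 13 genes of the mitochondrial genome fell (median -2.51). Of 64 nuclear genes of oxidative phosphorylation 6 rose and 17 fell, near the share of all genes (median -0.17, and -0.019 without SPF 31). With the trend on length and GC content removed their median was 0.52, beside 0.25 for all genes in that setting. Atp5o (1.36) and Cox7c (1.46) were among the rises and Ndufs7 (-2.50) and Atp5h (-2.03) among the falls. Rpl28 was at 3.49, 0 and 0 CPM in GF, 58.0, 39.0 and 39.9 CPM in SPF and 36.1, 40.5 and 50.8 CPM in CGF mice. In the same libraries, for the genes tested in the Fezf2 nuclei, the median of the ribosomal protein genes was -1.49 in Fezf2, -0.79 in Cux2 and -0.82 in Foxp2 nuclei, and that of the mitochondrial genome -2.50, -2.10 and -2.03. With the trend on length and GC content removed the medians in Fezf2 nuclei were -0.57 and -1.5, beside 0.25 for all genes. The nuclear oxidative phosphorylation genes had medians of -0.16 in Fezf2, 0.12 in Cux2 and 0.21 in Foxp2 nuclei. The change differed from that in Cux2 nuclei, toward lower, for 5 of the 13 genes of the mitochondrial genome, 2 of 75 ribosomal protein genes and 2 of 86 oxidative phosphorylation genes, where 0.487% of all 12948 genes differed in that direction. The 75 ribosomal protein genes tested there had a median difference of -0.51, beside -0.05 for all genes.

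**Figure D3:**
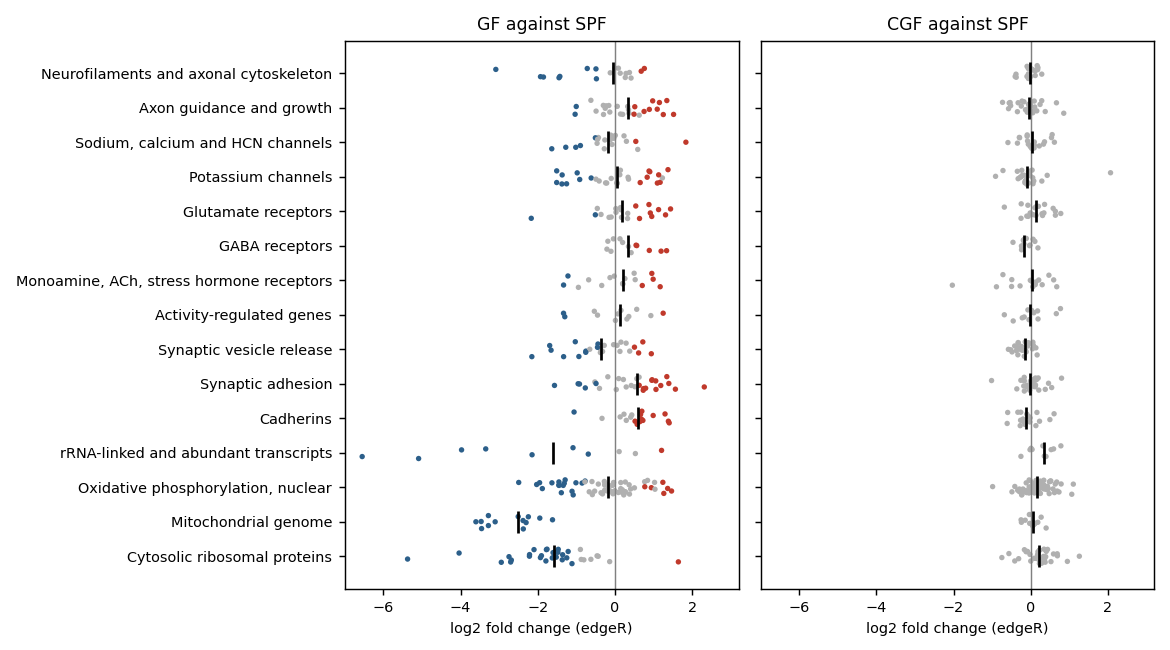
Log2 fold changes from edgeR in Fezf2 nuclei for the genes of each list, GF against SPF on the left and CGF against SPF on the right. Each point is a gene, red or blue where it rose or fell at an adjusted p under 0.05 and grey otherwise, and the black bar is the median: colour appears on the left only, with the mitochondrial genome (median -2.51), the ribosomal RNA-linked and abundant transcripts (median -1.62) and the ribosomal proteins (median -1.57) farthest from 0.

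Large single changes between GF and SPF mice included antisense and ribosomal RNA-linked genes. Nrg3os, annotated as antisense at chr14:38898302-38958794, was at 692, 567 and 617 CPM in GF and 4.64, 7.31 and 4.20 CPM in SPF mice (6.79, SE 0.31, edgeR adjusted p = 1.29e-15). Of 102 antisense genes tested 82 rose and 7 fell, with a median of 3.43, against 1106 rises and 1337 falls and a median of -0.02 in 6791 protein-coding genes. A gene could pass the low-count filter through the GF libraries alone, so the antisense count and median are partly set by the filter. Kcnq1, a potassium channel gene whose locus holds an antisense transcript, was at 321, 183 and 251 CPM against 4.64, 9.75 and 8.41 CPM (4.96). How the counting treated strand is not given in the sources used here, so sense and antisense reads cannot be told apart at such loci. Gm42418, a gene that overlaps ribosomal RNA, was at 129, 84.3 and 150 CPM in GF and 9176, 10282 and 13970 CPM in SPF mice (-6.55), and Cmss1 (-5.09) and Lars2 (-3.98) also fell. These 3 are in a list of 10 ribosomal RNA-linked and abundant transcripts, chosen with earlier results of these data known, of which 1 rose and 7 fell (median -1.62). Gm19951 had 0 UMIs in the 3 GF libraries, and against a floor of 3 UMIs over the group it was at least 61.3-fold lower than in SPF mice. Gm48099 was at least 55.0-fold lower in the same way. Il31ra had 2 UMIs in GF and 123 in SPF Fezf2 nuclei, a ratio of 58.0 with an exact counting interval from 15.7 to 484, which covers counting error only. With genes in 4 bins of equal number by span, from the shortest (up to 20.1 kb) to the longest (over 100.8 kb), the median change was -0.57, -0.07, 0.12 and 0.24 for GF against SPF.

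CGF and SPF mice, whose libraries were alike in depth, differed in 10 of 7024 genes. In none of the 15 lists was a gene called, and the list medians lay between -0.17 and 0.33. Sim2, a transcription factor of the bHLH-PAS family at chr16:94084931-94127032, was at 128, 130 and 212 CPM in CGF and 0 CPM in each SPF mouse. With 187 UMIs against 0 it was at least 70.8-fold higher in CGF mice, against a floor of 3 UMIs over the group (edgeR adjusted p = 2.44e-09), and GF mice held 0, 0 and 1 UMI. The same gene was at 97.4 to 217 CPM in the CGF mice in every other class of PFC nuclei counted, so it was not particular to the Fezf2 nuclei. Mid1, an E3 ubiquitin ligase on the X chromosome, was at 136, 298 and 212 CPM in CGF, 60.3, 31.7 and 48.3 CPM in SPF and 262, 251 and 269 CPM in GF mice (CGF against SPF 2.19, SE 0.26, edgeR adjusted p = 1.9e-05). Sim2 and Mid1 were called under every alternative run, leaving out each library included. Mid1, too, was higher in CGF than in SPF mice in the other Slc17a7 nuclei. Mid1 lies at chrX:169685199-170005736.

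Nrg1, a growth factor that signals through ErbB receptors at synapses, was at 636, 824 and 720 CPM in CGF, 1317, 1514 and 1544 CPM in SPF and 982, 506 and 965 CPM in GF mice (CGF against SPF -1.01, SE 0.20, edgeR adjusted p = 0.0264). Its call was lost without CGF 17, CGF 19, SPF 31 or SPF 32 (edgeR adjusted p up to 0.219) and after thinning to 2000 UMIs (edgeR adjusted p = 0.0522). The CGF mice lay below every SPF mouse, as they did in the other Slc17a7 nuclei (1505 to 1949 against 2688 to 2906 CPM). Maml3, a coactivator of Notch signalling, was at 297, 176 and 258 CPM in CGF and 71.9, 87.7 and 113 CPM in SPF mice (1.42, SE 0.29, edgeR adjusted p = 0.0321). Maml3 was also higher in CGF than in SPF mice in the other Slc17a7 nuclei (228 to 253 against 123 to 188 CPM). Cdk8, a kinase of the Mediator complex, was at 372, 399 and 444 CPM in CGF and 213, 224 and 237 CPM in SPF mice (0.85, SE 0.17, edgeR adjusted p = 0.0321). Tmtc2 was at 66.6, 69.4 and 55.2 CPM in CGF and 137, 161 and 105 CPM in SPF mice (-1.07, SE 0.23, edgeR adjusted p = 0.0491). In the other Slc17a7 nuclei the CGF and SPF mice overlapped for Tmtc2 (105 to 122 against 102 to 129 CPM), and the difference to Cux2 nuclei was not called (edgeR adjusted p = 0.0853). In Foxp2 nuclei the CGF mice lay below the SPF mice without overlap for Tmtc2 (42.1 to 55.3 against 60.7 to 66.9 CPM). The 2 groups overlapped in Cux2 and in Tshz2 nuclei. The calls of Maml3, Cdk8 and Tmtc2 were not stable either: Maml3 lost its call without any 1 of 4 libraries (CGF 17, CGF 19, SPF 30 or SPF 31), Cdk8 without any 1 of the 6 CGF and SPF libraries and Tmtc2 without any 1 of 6 (CGF 17, CGF 18, CGF 19, GF 7, SPF 30 or SPF 31), with edgeR adjusted p up to 0.283, 0.254 and 0.406. After thinning to 2000 UMIs Maml3 (edgeR adjusted p = 0.178) and Tmtc2 (edgeR adjusted p = 0.277) were not called, and DESeq2 called none of the 3. None of these 4 genes overlapped between CGF and SPF mice, which held for 12% of all genes tested. The remaining calls were Stk19 (1.26), Arf5 (-1.98), AC149090.1 (-1.85) and Gm45844 (-2.42), the last outside the rule for named genes and chosen after its values were seen. All of them showed the same order of CGF and SPF mice, without overlap, in the other Slc17a7 nuclei. Stk19 lost the call without any 1 of 5 libraries (CGF 17, CGF 19, GF 7, SPF 31 or SPF 32), after thinning (edgeR adjusted p = 0.277) and with DESeq2. Arf5 lost it without CGF 17, CGF 19 or SPF 32 (edgeR adjusted p up to 0.144). AC149090.1 lost it without CGF 19 (edgeR adjusted p = 0.0705) and with DESeq2, and its fold change was -1.16 without SPF 31.

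**Figure D4:**
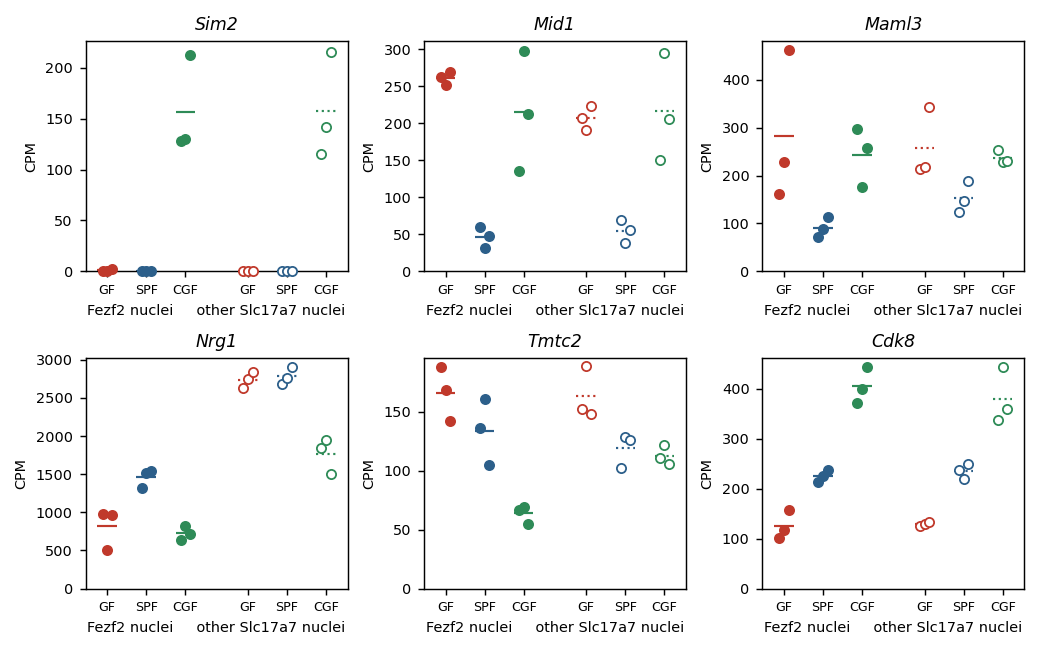
CPM of 6 of the genes that differed between CGF and SPF mice, in Fezf2 nuclei (filled) and in the other Slc17a7 nuclei of the same libraries (open). Points are mice and lines are means of 3: Sim2 is near 0 in all GF and SPF mice and at 128 to 212 CPM in the Fezf2 nuclei of CGF mice. For Sim2, Mid1, Maml3, Nrg1 and Cdk8 the open points show the same order of CGF and SPF mice.

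To ask which GF differences were unlike those of other excitatory neurons of the same mice, the Fezf2 nuclei were set against the Cux2 nuclei and against Foxp2 nuclei, a class with at least 2 UMIs of Foxp2 that is mostly layer 6. The interaction of group and class was tested with edgeR with the mouse as a block, so that what a library does to both classes alike is taken out. The change from SPF to GF differed between Fezf2 and Cux2 nuclei for 66 genes toward higher (0.51% called) and 63 toward lower (0.487% called) of 12948 (0.996% in all, 97 genes with DESeq2). Between Fezf2 and Foxp2 nuclei it was 15 and 17 of 9259 (0.346% called, 14 genes with DESeq2). DESeq2 was run without the low-count filter and gave no adjusted p for 21886 genes against Cux2 and 21421 against Foxp2 nuclei. With 1 library left out edgeR called 63 to 178 genes against Cux2 and 5 to 82 against Foxp2 nuclei. After removal of the trend on length and GC content the splits were 76 and 26, and 23 and 5. Values in these 2 comparisons are CPM scaled by edgeR's TMM factors over both classes. The classes differ in depth too, and with both thinned to 2000 UMIs 15 and 11 genes were called.

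Luzp2, which encodes a leucine zipper protein of brain (chr7:54835498-55268885), was at 523, 743 and 875 CPM in GF and 160, 169 and 336 CPM in SPF Fezf2 nuclei. In Cux2 nuclei it was at 424, 244 and 347 CPM in GF and 221, 232 and 318 CPM in SPF mice. The change was thus larger in Fezf2 nuclei, by 1.37 on the log2 scale (SE 0.17, edgeR adjusted p = 1.22e-09), and also larger than in Foxp2 nuclei (1.25, SE 0.21, edgeR adjusted p = 0.000822). Tox was at 1210, 1361 and 1540 CPM in GF and 662, 621 and 813 CPM in SPF Fezf2 nuclei, and at 105, 65.0 and 69.7 CPM and 105, 65.5 and 93.1 CPM in Cux2 nuclei (1.14, SE 0.15, edgeR adjusted p = 2.56e-08). Fras1, an extracellular matrix protein, differed by 1.29 (SE 0.15, edgeR adjusted p = 8.67e-11) through a lower level in GF Cux2 nuclei, at 97.3, 67.3 and 80.8 CPM against 170, 142 and 195 CPM, with 441, 437 and 521 CPM against 381, 338 and 485 CPM in Fezf2 nuclei. Of the genes in the lists, Kcnn2, Robo1, Epha6, Cntnap2, Cntnap5b, Nr3c2 and Adra1a were among those that differed toward higher in GF Fezf2 nuclei relative to Cux2 nuclei. Cntnap5b and Adra1a did so mainly with lower GF values in Cux2 nuclei.

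Toward lower, Pcp4, a calmodulin-binding peptide of layer 5 and 6 neurons at chr16:96467606-96525793, was at 69.3, 90.5 and 100 CPM in GF and 115, 210 and 154 CPM in SPF Fezf2 nuclei. In Cux2 nuclei the order was the opposite, with 87.5, 60.8 and 82.0 CPM in GF and 35.8, 36.2 and 38.5 CPM in SPF mice (difference -1.86, SE 0.22, edgeR adjusted p = 8.67e-11). Kcnc2 behaved alike, at 47.3, 33.5 and 55.0 CPM against 90.9, 89.1 and 72.8 CPM in Fezf2 and 422, 505 and 457 CPM against 269, 357 and 302 CPM in Cux2 nuclei (-1.54, SE 0.26, edgeR adjusted p = 2.22e-05). Pcdh15 was at 400, 107 and 368 CPM in GF and 459, 644 and 704 CPM in SPF Fezf2 nuclei, while GF and SPF mice overlapped in Cux2 nuclei (-1.36, SE 0.17, edgeR adjusted p = 2.13e-09). The neurofilament gene Nefm (-1.39) and the tubulin gene Tuba1b (-1.03) differed in the same direction. With DESeq2, Pcdh15 was not called as different (DESeq2 adjusted p = 0.0692), while Pcp4 and Nefm had no adjusted p and were not assessed. Kcnc2 (edgeR adjusted p = 0.266), Fras1 (edgeR adjusted p = 0.0836), Nefm (edgeR adjusted p = 0.379) and Tuba1b (edgeR adjusted p = 0.619) were not called after thinning. Nefm was also lost without GF 6 or SPF 31 (edgeR adjusted p up to 0.162). Against Cux2 nuclei, Luzp2 and Tox were called under every alternative with the mouse as a block, and against Foxp2 nuclei Luzp2 lost the call with at least 3 UMIs of the marking gene.

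**Figure D5:**
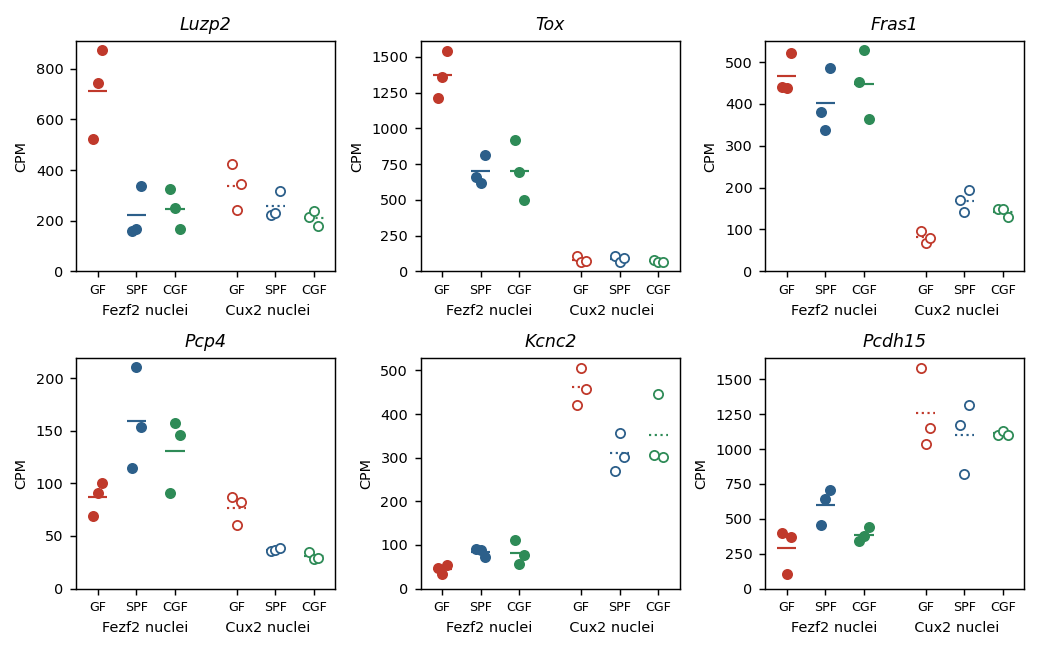
TMM-scaled CPM of 6 genes whose change from SPF to GF mice differed between Fezf2 nuclei (filled) and Cux2 nuclei (open) of the same libraries. Points are mice and lines are means of 3: Luzp2 and Tox are highest in GF Fezf2 nuclei, and Pcp4 and Kcnc2 are lower in GF than in SPF Fezf2 nuclei and higher in GF than in SPF Cux2 nuclei.

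Against Foxp2 nuclei, Kcnq5, an M-type potassium channel gene, was at 2907, 3061 and 2745 CPM in GF and 1163, 1220 and 1489 CPM in SPF Fezf2 nuclei, and at 936, 884 and 852 CPM and 737, 624 and 870 CPM in Foxp2 nuclei (difference 0.91, SE 0.13, edgeR adjusted p = 5.5e-05). Every GF mouse lay above every SPF mouse in Fezf2 nuclei, while GF and SPF mice overlapped in Foxp2 nuclei. Vamp2 was at 65.0, 45.6 and 70.4 CPM in GF and 225, 264 and 276 CPM in SPF Fezf2 nuclei, and at 103, 87.1 and 100 CPM and 192, 241 and 163 CPM in Foxp2 nuclei (-1.09, SE 0.23, edgeR adjusted p = 0.0142). Pcdh15 (-1.32) and the tubulin genes Tuba1b (-1.21) and Tubb5 (-1.20) differed in the same direction. The Vamp2 call was lost without GF 6, GF 7 or SPF 32 (edgeR adjusted p up to 0.146) and after thinning (edgeR adjusted p = 0.314), and that of Pcdh15 without SPF 31 (edgeR adjusted p = 0.053). Tuba1b lost the call without GF 7 or SPF 32 and Tubb5 without GF 7 or SPF 31, and both lost it after thinning (edgeR adjusted p = 0.58 and 0.497). Of 26 vesicle release genes, Vamp2 alone was called against Foxp2 nuclei.

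For CGF against SPF mice the same tests called 1 gene against Cux2 nuclei (0.00772% called, with 652 genes at an unadjusted p under 0.05) and 0 against Foxp2 nuclei (462 genes at an unadjusted p under 0.05), and DESeq2 called 0 in both. The gene was Maml3, at 277, 165 and 240 CPM in CGF and 67.1, 82.2 and 109 CPM in SPF Fezf2 nuclei, and at 260, 236 and 251 CPM and 162, 189 and 243 CPM in Cux2 nuclei (1.07, SE 0.20, edgeR adjusted p = 0.00499). The call was lost after thinning to 2000 UMIs (edgeR adjusted p = 1.0), with at least 3 UMIs of the marking gene and with no replicate block.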

How the data were processed

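Nuclei from frozen PFC were captured with the 10x Chromium 3' V3.1 kit. The authors aligned the reads to mm10 with Cell Ranger (3.1.0 in the file headers) and deposited raw UMI counts per gene and nucleus, 30905 genes in 18 libraries. How strand and introns were counted is not given in the sources used here. Counts were summed per library over the nuclei of each class. No doublet caller was run, and an alternative left out nuclei above 2 times the median UMI count. Sums were tested with edgeR 4.0.16 (quasi-likelihood test, filterByExpr, TMM, Benjamini-Hochberg adjustment, threshold 0.05) in R 4.3.3, with all 9 PFC libraries in each fit, and the tests were tried on simulated counts. Shares were compared with exact two-sided permutation tests in scipy 1.17.1. Differences between classes had the mouse as a block, since both classes came from the same mouse: deviations from the group means correlated at 0.165 to 0.421 (Cux2 nuclei) and 0.138 to 0.303 (Foxp2 nuclei) across genes. CPM are counts per 1000000 summed counts of the genes past the filter, with sums scaled by TMM factors fitted within each class, or over both classes in the difference tests. Ratios between classes used a pseudocount of 1 CPM, and unscaled CPM over all genes were an alternative chosen after seeing the data. Counting intervals are exact at 95.0% and, like floors, cover counting error only.

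Named genes were the 10 largest rises and 10 largest falls past the threshold with a mean of at least 50 CPM and no overlap between groups, every layer 5 marker, and in each list the largest changes and those with a known role. Of these, the text gives the ones that matter most. Members, markers and lists were chosen with earlier results of these data known. Alternatives were DESeq2 1.42.0, its size factors, no filter on low counts, at least 3 UMIs of the marking gene, removal of the trend on gene length and GC content (spline with 4 degrees of freedom), thinning to 2000 UMIs, no block, and leaving out each library. The thinned fit was chosen after seeing the data. Coordinates are from GENCODE vM21 (GRCm38). Results of some genes are not reported here.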

Additional observations from a re-analysis of the deposited data

Results flagged for a closer look

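The results below were picked because the change from SPF to GF mice, or from SPF to CGF mice, differed between Fezf2 nuclei and another class of the same libraries by edgeR's interaction test. Each value is the difference of the 2 log2 fold changes. Against Cux2 nuclei, 129 genes differed for GF against SPF mice. The named genes toward higher in Fezf2 nuclei were Luzp2 (1.37), Gng7 (1.33), Fras1 (1.29), L3mbtl4 (1.23), Tmem200a (1.18), Cpne8 (1.14), Tox (1.14), Nkain3 (1.10), Abat (1.10) and Maml3 (1.10). Those toward lower were Pcp4 (-1.86), Erbb4 (-1.65), B3galt2 (-1.55), Kcnc2 (-1.54), Nefm (-1.39), Pcdh15 (-1.36), Chd3os (-1.29), Nenf (-1.26), Gm2000 (-1.10) and Tuba1b (-1.03). Of these 20 genes, 15 were not called after thinning, 14 with at least 3 UMIs of the marking gene, 9 with DESeq2, 19 with no replicate block and up to 5 with 1 library left out (5 without GF 6). Of the 9, only Pcdh15 had an adjusted p in DESeq2 (DESeq2 adjusted p = 0.0692), so the rest were not assessed there. Abat and Nenf each lost the call in 10 settings. Nkain3 was at 0.66 and not called without GF 6.

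Against Foxp2 nuclei, 32 genes differed for GF against SPF mice. Toward higher these were led by Kcnk12 (1.37), Luzp2 (1.25), Tmem200a (0.94), Kcnq5 (0.91), Maml3 (0.90), Lmbr1 (0.89), Elmo1 (0.89), Tbl1x (0.86), Cfap54 (0.70) and Atp8a2 (0.60). Toward lower they were led by Pcdh15 (-1.32), Tuba1b (-1.21), Tubb5 (-1.20), C1ql3 (-1.11), Il1rapl2 (-1.10), Vamp2 (-1.09), Hs3st4 (-1.06), Slc25a3 (-0.97), Ppia (-0.88) and Fth1 (-0.86). Of these 20 genes, 16 were not called after thinning, 16 without GF 7, 14 without SPF 32, 13 without SPF 31 and 18 with at least 3 UMIs of the marking gene. None of the 20 was called with no replicate block, and 12 were not called with DESeq2. Among the 12, Kcnk12, Tmem200a, Lmbr1, Tbl1x, Tuba1b, C1ql3 and Slc25a3 had no adjusted p in DESeq2 and were not assessed there. Lmbr1 lost the call in 15 settings and Kcnk12 in 11, while Kcnq5 and Luzp2 kept it without each library. Maml3 was at 0.58 and not called without GF 7. For CGF against SPF mice 1 gene differed from Cux2 nuclei, Maml3 (1.07).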

How the results depend on the processing

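Against the other Slc17a7 nuclei, 405 genes were higher and 509 lower in all 9 libraries with unscaled CPM, in place of 554 and 371. The share of Fezf2 nuclei was lower in GF than in SPF mice under every alternative run. The exact permutation test over the 3 groups stayed under the threshold, with p from 0.00357 to 0.0464 when 1 library was left out, while GF against SPF alone gave 0.1 throughout. For genes, GF against SPF gave 915 calls with at least 3 UMIs of Fezf2, 714 after thinning and 2155 to 2793 with 1 library left out. GF against CGF gave 1585 with DESeq2, 780 with at least 3 UMIs, 648 after thinning and 1906 to 2507 with 1 library left out. CGF against SPF gave 5 with DESeq2, 28 without a filter, 2 with at least 3 UMIs and 4 to 12 with 1 library left out.

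The difference to Cux2 nuclei for GF against SPF gave 18 calls with at least 3 UMIs, 15 after thinning, 1 with no replicate block and 63 to 178 with 1 library left out (63 without GF 6, 70 without SPF 31). For CGF against SPF it gave 0 with DESeq2, 7 without a filter, 2 with at least 3 UMIs, 3 without nuclei above 2 times the median UMIs, 0 after thinning, 0 with no replicate block and 1 to 8 with 1 library left out. The difference to Foxp2 nuclei for GF against SPF gave 14 with DESeq2, 59 without a filter, 4 with at least 3 UMIs, 11 after thinning, 0 with no replicate block and 5 to 82 with 1 library left out (82 without GF 5, 17 without GF 6, 5 without GF 7, 7 without SPF 31, 8 without SPF 32).

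Markers that were not called changed sign in 5 settings: Bcl6 with at least 3 UMIs (-0.20), Crym with length and GC removed (0.045, where the median of all genes was 0.25), Crim1 (-0.13) and Etv1 (0.33) after thinning, and Deptor without SPF 31 (0.031, with a range from -0.68 to 0.031 over the libraries left out). The cause was not tested. Thinning before the rule, as planned, left 0, 0 and 1 GF nuclei, so genes could not be fitted. With 25 to 94 nuclei per library, genes of low level could not be tested. Of the list medians under an alternative, 37 moved by more than the spread between libraries and 203 did not.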

Other observations

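Several genes outside every list set the Fezf2 nuclei apart from the other Slc17a7 nuclei of the same library. They were chosen after their values were seen and are given without a test. At least 2-fold higher in all 9 libraries were 40 genes and at least 2-fold lower 33 (37 and 45 with unscaled CPM). The higher ones included 6430573F11Rik (115 against 12.9 CPM at the median), Tcerg1l (181 against 26.5 CPM), L3mbtl4 (242 against 41.4 CPM), Gm2164 (345 against 65.5 CPM) and Pex5l (1621 against 536 CPM), whose protein TRIP8b binds HCN channels. Trpc4, a cation channel gene, had 164 against 54.7 CPM, and Kcng1, a modulatory potassium channel subunit, 66.0 against 19.4 CPM.

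Some of these were shared with another class. Rhbdl3 had 106 CPM in Fezf2 and 110 CPM in Tshz2 nuclei, against 29.6 CPM in the other Slc17a7 nuclei, and Tmem163 had 99.9, 117 and 23.5 CPM. The lower genes included Sntg2 (5.08 against 69.0 CPM), Zfhx4 (3.51 against 70.5 CPM), Pde7b, a cAMP phosphodiesterase (13.9 against 154 CPM), Col19a1 (15.5 against 122 CPM), Cpne9 (15.5 against 119 CPM) and Nectin3, an adhesion molecule (17.7 against 99.1 CPM). Low levels of several were shared with the deep-layer classes: Nectin3 had 16.9 CPM in Foxp2 and 21.4 CPM in Tshz2 nuclei, Cpne9 21.5 and 20.9 CPM, and Sntg2 7.27 CPM in Foxp2 nuclei.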
